A study of Mus musculus with 104 samples.

Results

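The libraries described here are the single-neuron libraries of mouse substantia nigra in which the transcript of Aldh1a1 was low. Members were chosen by a single measured value, a level of Aldh1a1 below 500 CPM (the gene's count scaled to a common library total, spike-in rows left out), which held for 63 of 104 libraries. They comprise 22 of 38 libraries titled experiment (57.9%) and 41 of 66 titled control (62.1%). Each library holds the content that a patch pipette drew from 1 neuron in a brain slice, amplified by the Smart-seq2 protocol. The series is about fluorescent reporters of Lewy pathology, and its design text speaks of picking neurons of the substantia nigra pars compacta that carried fluorescent inclusions. Both groups are labelled as dopaminergic neurons of the substantia nigra, and the labels used here give neither group a genotype, strain, treatment, time or age, and do not say how control neurons were chosen.

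Aldh1a1 encodes an aldehyde dehydrogenase that clears the aldehyde formed from dopamine and makes retinoic acid. In the midbrain it marks dopaminergic neurons of the ventral tier of the substantia nigra, which project to the dorsal striatum and are among the most vulnerable in Parkinson disease. Dopaminergic neurons low in Aldh1a1 include those of the dorsal tier and of the ventral tegmental area, many of which express calbindin (Calb1). The comparison asks how the transcripts of such neurons differed between experiment and control.

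Since Aldh1a1 chose the libraries, its level is a description only. It ranged from 0 to 417 CPM with a median of 50.8 in the experiment libraries, 3 of which had no count, and from 0 to 410 CPM with a median of 31.2 in control, where 15 had none. The 4 libraries just inside the threshold lay at 341 to 417 CPM and the 4 just outside at 532 to 689 CPM. All 7 experiment libraries with numbers 1 to 10 fell below the threshold, and 5 of the 10 such control libraries did.

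No animal is named in the labels. Experiment and control therefore count as 1 sample each, and the differences carry no test and no p-value. All intervals on levels and ratios cover counting error only. Reads carry no molecular identifiers. The spread between neurons is shown as the lowest, median and highest library and as the share of experiment-control library pairs in which the experiment library was higher, which is 50% for a gene without a difference in rank. Whether a lower pipette level reflects less RNA in the neuron or less of the neuron in the pipette cannot be told apart.

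Experiment libraries held 326259 to 3094036 gene counts and control libraries 153770 to 2537783, with medians of 7346 genes detected in experiment and 8002 in control. After thinning to 400000 counts, which left out 2 libraries of each group, the medians were 7092.5 genes in experiment and 7572 in control. By their titles the libraries fall into 2 sets, and no label calls these a batch. Set 1 held 12 experiment libraries and 16 of control, and set 2 held 10 of experiment and 25 of control. Mitochondrial transcripts took a median of 4.56% of gene counts in experiment and 3.44% in control libraries. Spike-in transcripts, added to each library as a reference, took a median of 0.543% of all counts in experiment (0.0390% to 1.32%) and 0.301% in control (0.0480% to 1.93%), and their part in the differences was not tested. No 2 of the 63 libraries had identical counts.

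The dopaminergic label was checked against Th, Slc6a3, Slc18a2 and Ddc, and 1 library went against it most clearly. Experiment 27 had 138 CPM of Th, 256 CPM of Slc6a3, 95.9 CPM of Slc18a2 and 59.1 CPM of Ddc, against medians of 4639, 3728, 2527 and 2161 CPM over the experiment libraries. Its summed level of astrocyte, microglia and oligodendrocyte markers, 23934 CPM, was the highest of the 63 libraries. Every other library had at least 1000 CPM of Th, but some were low in other markers. The 3 libraries with less Slc6a3 than experiment 27 were experiment 5 (250 CPM), control 5 (175 CPM) and control 15 (182 CPM). Experiments 52 and 49 had 259 and 285 CPM of Slc6a3 and glial sums of 21630 and 12146 CPM. Leaving out experiment 27 alone keeps all of these. Results that rest on experiment 27 are given with and without it.

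A gene was counted as expressed at a pooled level of 10 CPM or more with a count in 25% or more of either group's libraries, which held for 9089 genes. It was called higher or lower when the groups differed at least 1.5-fold by pooled CPM and by the mean of library CPM, and when the experiment library was higher in at least 65% or at most 35% of library pairs. By this rule 163 genes (1.79%) were called higher and 468 genes (5.15%) lower in experiment. Of these, 148 called higher and 428 called lower had the same direction in both title sets. The calls were made on the same libraries pooled, so this agreement is partly built in and is not a replication. Over the expressed genes the log2 ratio, experiment over control, had a median of -0.03. Applied to the same 9089 genes, the rule called 3.88% higher and 9.43% lower within set 1, and 7.04% higher and 10.6% lower within set 2. Without experiment 27 the shares were 2.00% and 5.03%, higher first. Without the 16 libraries highest in summed glial markers they were 3.93% and 7.20%, and without the 16 highest in GABAergic markers 3.75% and 9.61%. Without libraries numbered 1 to 10 they were 4.82% and 6.43%. Where a gene is given a pair of ratios in the sets, that of set 1 stands first. Experiment and control are spread unevenly over the 2 sets. A pooled value therefore also holds any difference between the sets, and it can lie outside both set values, as for Th and Nefl. The part of title set in the pooled values was not tested.

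Each of the 63 libraries was also left out in turn, a choice made after seeing the data, which gave 152 to 196 genes called higher and 430 to 550 lower. Of 89 called genes that are named here or belong to a gene list, 59 were called in each of these 63 comparisons and 30 were not called in at least 1. The calls held least often were those of Foxa2 (24 of 63), Egr1 (30), Chrnb3 (30), Ppp1r15a (33), Pcbd1 (33), Junb (35), Mvd (37) and Tecr (43).

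Th, which encodes tyrosine hydroxylase, the rate-limiting enzyme of dopamine synthesis, was the gene most often lower in experiment among those called (mouse GRCm38, chromosome 7, 142892752 to 142931128, minus strand). In the experiment libraries it ranged from 138 to 8299 CPM with a median of 4639 CPM, and in control from 1128 to 27011 CPM with a median of 9439 CPM. The ranges overlapped, but all 22 experiment libraries lay below the control median. The pooled level was 4371 CPM in experiment (95% Poisson interval 4346 to 4397) and 10442 CPM in control (10412 to 10471), a ratio of 0.419 (0.416 to 0.421), and the experiment library was higher in 14.0% of pairs. The ratio was 0.514 in set 1 and 0.456 in set 2, and 0.440 without experiment 27. When the 16 libraries highest in summed glial markers were left out, 10 of experiment and 6 of control, it was 0.509.

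In the Aldh1a1-high libraries, 16 experiment and 25 control, Th stood at 6835 CPM in experiment and 8533 CPM in control, a ratio of 0.801 with the experiment library higher in 38.2% of pairs. The ratio was thus nearer to 1 in those libraries. Whether the ratios of the Aldh1a1-low and Aldh1a1-high libraries differ was not tested here or for any gene below, since the design holds no replicate samples.

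The promoter of Th is shown because Th had the lowest share of pairs among the called genes and its window holds a textbook cyclic AMP response element. It runs from 250 bases before to 50 bases after the start site (RefSeq, GRCm38.p6, chr7:142899946-142900245, minus strand), with the motif TGACGTCA, which reads the same on both strands, in capitals 45 bases before the start.
Th: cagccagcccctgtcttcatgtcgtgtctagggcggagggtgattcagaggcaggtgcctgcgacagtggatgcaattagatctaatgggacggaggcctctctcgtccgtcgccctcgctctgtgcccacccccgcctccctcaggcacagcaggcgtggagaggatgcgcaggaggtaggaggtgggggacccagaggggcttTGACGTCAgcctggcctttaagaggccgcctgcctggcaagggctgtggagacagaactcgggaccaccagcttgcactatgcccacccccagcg
The motif was present in this window in 2.03% of 27025 genes, and neither of the other called genes of the dopamine list, Gch1 and Pcbd1, held it there.

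Other steps of dopamine handling differed less or less evenly. Of 16 expressed genes for dopamine synthesis, transport and breakdown, 0 were called higher and 3 lower, Th, Gch1 and Pcbd1, against 5.15% of all genes called lower, and the list median was a log2 ratio of -0.50. Without experiment 27 the count was again 0 higher and 3 lower, with a median of -0.43. Without libraries numbered 1 to 10 it was 1 higher and 3 lower, against 4.82% and 6.43% of all genes, with a median of -0.72. Gch1, which starts the synthesis of tetrahydrobiopterin, the cofactor of tyrosine hydroxylase, ranged from 0 to 750 CPM with a median of 140 CPM in experiment and from 0 to 1417 CPM with a median of 315 CPM in control. Its pooled ratio was 0.498, and 0.818 and 0.375 in sets 1 and 2. Pcbd1, which regenerates that cofactor, had medians of 54.4 CPM in experiment and 88.9 CPM in control and a ratio of 0.464, with 0.466 and 0.472 in the sets. All 3 called genes act at the hydroxylation step or on its cofactor, but the call of Pcbd1 held in only 33 of 63 comparisons with a library left out.

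The transporters and the decarboxylase were not called. Slc6a3, the dopamine transporter, had medians of 3728 CPM in experiment and 4426 CPM in control, a ratio of 0.743, and 1.22 and 0.673 in sets 1 and 2. Slc18a2, the vesicular monoamine transporter, had a ratio of 0.882, with 1.22 and 0.717 in the sets. Ddc, which turns L-DOPA into dopamine, had medians of 2161 CPM in experiment and 2671 CPM in control and a ratio of 0.664, at 33.3% of pairs. Ddc thus met the pooled fold limit and the pair limit and missed the call only on the mean of library CPM. Leaving out the glia-rich libraries, which kept 12 of experiment and 35 of control, gave these 3 genes ratios of 0.935, 1.20 and 0.939, and Gch1 a ratio of 0.452.

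**Figure D1:**
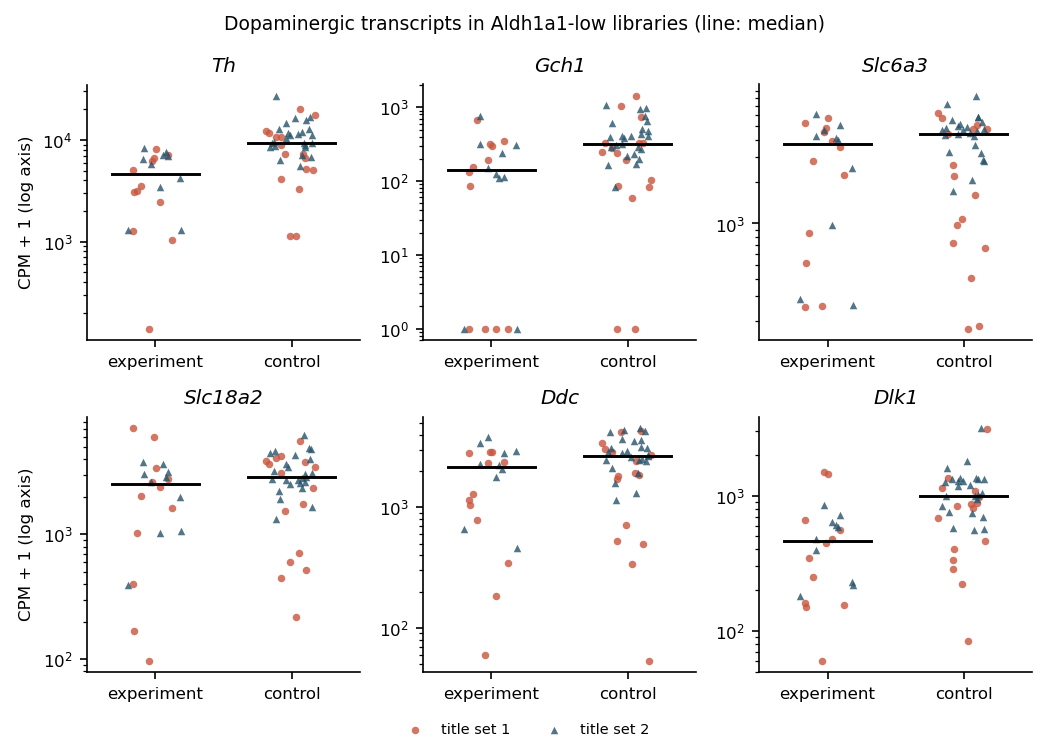
Levels of 6 dopaminergic transcripts in each Aldh1a1-low library, as CPM plus 1 on a log axis, with experiment (22 libraries) left of control (41) and the line at the group median. Circles and triangles are title sets 1 and 2. Every experiment library lies below the control median of Th, 9439 CPM, while Slc6a3, Slc18a2 and Ddc overlap widely.

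Of 13 expressed transcription factors that set and hold dopaminergic identity, 0 were called higher and 2 lower, Lmx1b and Foxa2, against 5.15% of all genes called lower. Of the 13, 12 had a ratio below 1, and the list median was a log2 ratio of -0.57. Lmx1b, a LIM-homeodomain factor, had a count in 3 experiment and 27 control libraries, with 4.25 CPM pooled in experiment and 27.4 CPM in control, a ratio of 0.155 that was 0.100 without experiment 33 and 0.0883 without experiment 45. Foxa2, a forkhead factor, had a count in 7 experiment and 26 control libraries and a pooled ratio of 0.562, but 2.00 in set 1, 0.146 in set 2 and 0.365 without experiment 1. Nr4a2 (ratio 0.637) and Pitx3 (0.677), both needed for midbrain dopaminergic neurons, missed the pair limit, and Pitx3 missed the fold limit as well. In the Aldh1a1-high libraries the list median was 0.13, with Nr4a2 at 1.00 and Lmx1b at 1.89.

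Subtype markers gave few calls, beside 1.79% of all genes called higher and 5.15% lower. Calb1, the calbindin of dorsal-tier and ventral tegmental neurons, ranged from 0 to 591 CPM with a median of 3.21 CPM in experiment and from 0 to 2743 CPM with a median of 64.1 CPM in control. Its pooled ratio was 0.214, yet the experiment library was higher in 38.9% of pairs, so it was not called, and without experiment 1 the ratio was 0.142. Tacr3, the neurokinin 3 receptor, was called lower, with a count in 10 experiment and 25 control libraries and a ratio of 0.160, or 0.104 without experiment 37. Of 9 expressed ventral-tier genes 1 was called higher, Lmo3, a LIM-only factor (ratio 1.81, but 0.986 in set 1), and 1 lower, Tacr3. The ventral-tier factor Sox6 had a ratio of 0.690 at 46.7% of pairs.

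Dlk1, a Notch-family ligand that is imprinted and marks midbrain dopaminergic neurons, was called lower. It ranged from 59.1 to 1484 CPM with a median of 462 CPM in experiment and from 82.9 to 3143 CPM with a median of 993 CPM in control. Here 20 of 22 experiment libraries lay below the control median. The pooled ratio was 0.442 (0.433 to 0.451), 0.522 and 0.473 in the sets and 0.501 in the Aldh1a1-high libraries. Of 16 expressed imprinted neuronal genes, 1 was called higher, Peg13, a noncoding transcript (1.64), and 2 lower, Dlk1 and Ndn, which encodes necdin. Of all genes 1.79% were called higher and 5.15% lower.

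A few receptors for trophic factors and acetylcholine were called lower, beside 5.15% of all genes called lower. Gfra1, the co-receptor of GDNF, had a count in 5 experiment and 24 control libraries and a ratio of 0.573 (0.811 and 0.0792 in the sets). A single library held 52% of its experiment counts, and without it, experiment 2, the ratio was 0.313. Ntrk3, a neurotrophin receptor, had a ratio of 0.561, but 0.146 in set 1 and 1.20 in set 2 and 0.366 without experiment 37, and these were the 2 called lower of 9 expressed receptors of this list, with 0 called higher. Of 6 expressed nicotinic receptor subunits, 0 were called higher and 2 lower, Chrnb2 (ratio 0.464, 0.225 and 0.797 in the sets) and Chrnb3 (0.549, 0.662 and 0.689), and without the glia-rich libraries none of the 6 was called. Chrna6, the subunit typical of dopaminergic neurons, had a ratio of 0.779 and was not called.

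Among genes of pacemaking and excitability, 0 were called higher and 7 lower of 28 expressed, against 5.15% of all genes called lower, and the list median was a log2 ratio of -0.28. Among them are the calcium channel subunits Cacna1a (P/Q-type), Cacna1e (R-type) and Cacna1g (T-type), the potassium channel Kcnma1 (BK), Kcnip4 (a partner of A-type channels) and Hcn3 (a pacemaker channel). Kcnip4 ranged from 0 to 288 CPM with a median of 48.5 CPM in experiment and from 0 to 490 CPM with a median of 143 CPM in control, a ratio of 0.425. Kcnma1 had medians of 17.4 CPM in experiment and 76.7 CPM in control and a ratio of 0.330. Both ranges overlapped from 0 upward. Cacna1g had a ratio of 0.163, or 0.0765 without experiment 36, and Hcn3 one of 0.421, or 0.267 without experiment 2. Within set 1 the list had 2 called higher and 6 lower, against 3.88% and 9.43% of all genes there, with a median of -0.03. Within set 2 it had 2 higher and 9 lower, against 7.04% and 10.6%, its median being -0.54. Without the glia-rich libraries 3 were called higher and 5 lower, against 3.93% and 7.20%, with a median of -0.15. The ratios of those named were below 1 in both sets, though Cacna1e was at 0.988 in set 1, and in the Aldh1a1-high libraries they ran between 0.502 (Hcn3) and 1.27 (Cacna1e). Cacng5, a regulatory subunit of AMPA receptors, had 0 counts in the experiment libraries and 1293 counts or 27.8 CPM in control. With the experiment sum raised to the floor of 3 counts over the group, 0.118 CPM, it was 236-fold lower. That fold depends on the floor, which is a setting and not a limit drawn from the counts. Cacng5 had a count in 23 of 41 control libraries.

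Enzymes that make serine and proteins that carry amino acids stood higher in experiment. Serine is built from a glycolytic intermediate by Phgdh, Psat1 and Psph, and its carbon feeds mitochondrial folate metabolism through Shmt2 and Mthfd2. Many of these genes are known targets of the transcription factor ATF4 in the integrated stress response. Of 18 expressed genes of this list, 9 were called higher and 0 lower in experiment, against 1.79% of all genes called higher, and the list median was a log2 ratio of 1.47. The 9 were Phgdh, Psat1, Psph, Shmt2, Mthfd2, Pycr1, Asns, Slc3a2 and Slc38a2. Without experiment 27 the counts were again 9 and 0, with a median of 1.53.

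Psat1, phosphoserine aminotransferase (chromosome 19, 15904678 to 15947337, minus strand), ranged from 0 to 752 CPM with a median of 153 CPM in experiment, and from 0 to 368 CPM with a median of 0 in control. It had a count in 16 experiment and 19 control libraries. The pooled level was 195 CPM in experiment (190 to 201) and 23.9 CPM in control (22.5 to 25.3), a ratio of 8.18 (7.66 to 8.74), at 73.8% of pairs. Phgdh, the first enzyme of the pathway, ranged from 0 to 447 CPM with a median of 37.7 CPM in experiment and from 0 to 167 CPM with a median of 0 in control. It had a count in 12 experiment and 10 control libraries and a pooled ratio of 6.51. Shmt2 had a count in 15 libraries of each group, medians of 33.6 CPM in experiment and 0 CPM in control and a ratio of 6.14. Groups overlapped at 0 for all these enzymes, since several experiment libraries also lacked them.

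The size of this difference varied between title sets. In set 2 the list median was 2.53, with ratios of 21.5 for Psat1 and 21.2 for Phgdh. In set 1 it was 0.40, with 1.96 for Psat1 and 0.769 for Phgdh, so Phgdh stood lower there. Mthfd2 was at 1.02 in set 1, at 52.9% of pairs, and at 8.74 in set 2. Asns was at 1.25 in set 1, at 55.7% of pairs, and at 2.40 in set 2. Shmt2 (12.6 and 6.22), Psph (9.62 and 5.74), Slc3a2 (1.90 and 3.11) and Slc38a2 (1.58 and 2.54) were higher in sets 1 and 2 alike. The set 1 ratios of Shmt2 and Psph rest on low control levels, 5.96 and 4.05 CPM. By the same rule 3 of the 18 were called higher and 1 lower within set 1, and 15 higher and 1 lower within set 2, against the shares of all genes given above. Psph was at 4.15 over both sets, or 9.31 without control 42, Mthfd2 at 3.66, or 5.54 without control 7, and Pycr1 at 4.07, or 6.35 without control 46. The libraries numbered 1 to 10, 7 of experiment and 5 of control, all lie in set 1. Without them, over both sets, 11 were called higher and 0 lower, against 4.82% and 6.43% of all genes, with a list median of 1.996. Psat1 was then at 18.96, Phgdh at 13.93 and Mthfd2 at 6.91, while Shmt2 (5.04) and Slc38a2 (1.81) had lower ratios than with all libraries. The other libraries of set 1 were not compared alone. Leaving out the glia-rich libraries gave 12 called higher and 1 lower with a list median of 1.37, and leaving out those richest in GABAergic markers, described below, 2.30. In the Aldh1a1-high libraries it was 1.24, with a ratio of 4.15 for Psat1 (180 CPM in experiment and 43.5 CPM in control), 4.31 for Phgdh and 6.06 for Shmt2.

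Slc3a2, the heavy chain shared by several amino acid exchangers, ranged from 0 to 1098 CPM with a median of 316 CPM in experiment and from 0 to 449 CPM with a median of 133 CPM in control, a ratio of 2.18. Slc38a2, a neutral amino acid carrier, had medians of 139 CPM in experiment and 75.7 CPM in control and a ratio of 2.01. Asns, asparagine synthetase, had medians of 517 CPM in experiment and 291 CPM in control and a ratio of 1.66. Unlike the serine enzymes, these 3 had counts in most control libraries, 34, 34 and 41 of 41.

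Of 30 expressed genes of endoplasmic reticulum and integrated stress, 3 were called higher, Ddit3, Ppp1r15a and Asns, which the serine list also holds, and 0 lower. Of all genes 1.79% were called higher and 5.15% lower, and the list median was -0.03. Within set 1 there were 2 higher and 2 lower, against 3.88% and 9.43% of all genes there. Within set 2 there were 9 higher and 3 lower, against 7.04% and 10.6%. Ddit3 encodes CHOP, a transcription factor of the stress response, and ranged from 0 to 344 CPM with a median of 154 CPM in experiment and from 0 to 196 CPM with a median of 66.2 CPM in control. Its ratio was 2.43 (2.32 to 2.54), 2.21 and 2.84 in the sets and 2.38 in the Aldh1a1-high libraries. Ppp1r15a, the phosphatase subunit that reverses the block of translation, had a ratio of 1.56, but 0.736 in set 1. Sars, which charges the transfer RNA for serine, had medians of 582 CPM in experiment and 317 CPM in control and a ratio of 1.89, with 1.92 and 2.27 in the sets.

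Across the 22 experiment libraries, Spearman's rho of Psat1 was 0.75 with Phgdh, 0.71 with Shmt2 and 0.62 with Ddit3. Across the 41 control libraries the values were 0.07, 0.08 and -0.05. These are descriptions over libraries that share depth and title set, and in control most values of the enzymes are 0.

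**Figure D2:**
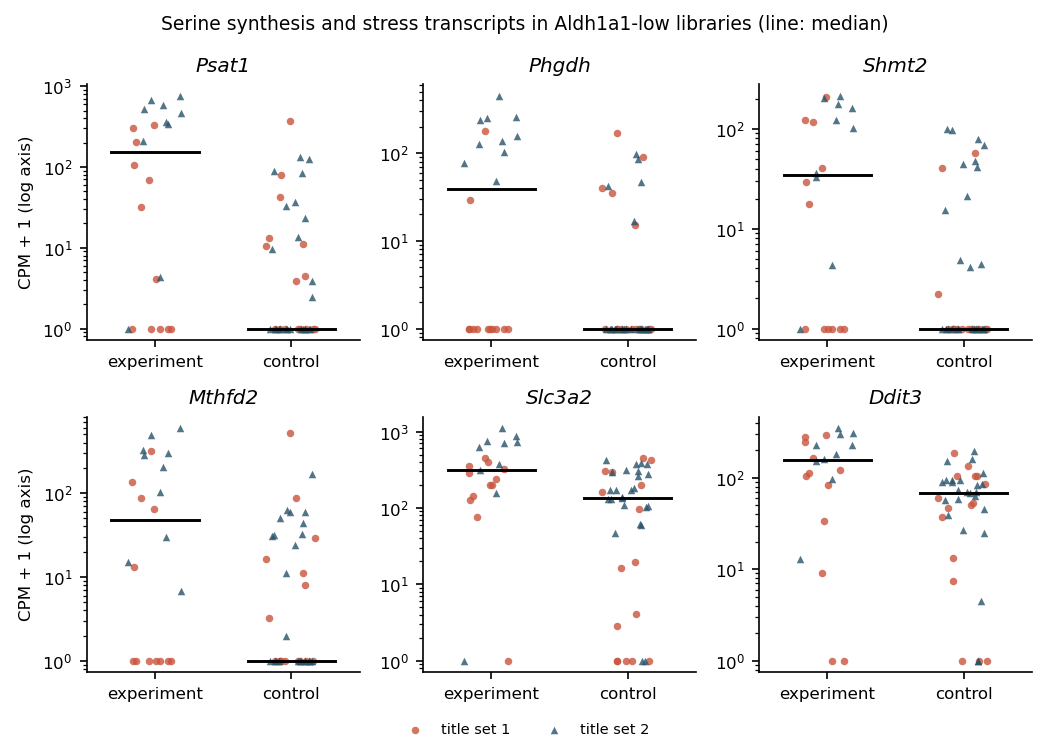
Levels of 5 genes of serine synthesis, one-carbon metabolism and amino acid transport and of Ddit3 in each Aldh1a1-low library, as CPM plus 1 on a log axis, with experiment left of control and the line at the group median. The high Psat1 and Phgdh values of experiment are mostly triangles, which mark title set 2 (circles mark set 1), where the pooled ratios were 21.5 and 21.2.

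Promoters of Asns and Pycr1 are shown because they were the 2 of the 9 called genes whose window held the amino acid response motif TGATGNAA, sought on both strands, which was present in 4.51% of 27025 genes. Both sequences run from 250 bases before to 50 after the start (RefSeq, GRCm38.p6, minus strand), Asns at chr6:7693160-7693459 with the motif 23 bases before the start and Pycr1, which makes proline, at chr11:120643699-120643998 with the motif 103 bases before it. Capitals mark the motif.
Asns: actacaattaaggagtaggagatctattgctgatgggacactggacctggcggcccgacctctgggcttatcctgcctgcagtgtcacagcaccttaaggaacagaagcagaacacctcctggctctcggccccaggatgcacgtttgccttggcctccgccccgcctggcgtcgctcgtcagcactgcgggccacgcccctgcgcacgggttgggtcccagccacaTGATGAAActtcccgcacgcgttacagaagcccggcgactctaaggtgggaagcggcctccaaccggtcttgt
Pycr1: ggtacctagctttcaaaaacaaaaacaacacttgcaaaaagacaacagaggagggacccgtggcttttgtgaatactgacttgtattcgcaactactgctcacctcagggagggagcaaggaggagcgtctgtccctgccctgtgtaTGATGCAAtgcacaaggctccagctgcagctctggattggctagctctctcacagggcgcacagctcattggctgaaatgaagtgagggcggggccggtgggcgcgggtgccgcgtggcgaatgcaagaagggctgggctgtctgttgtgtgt
A match is a description of these letters and shows neither binding nor a cause.

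Transcripts typical of GABAergic neurons, which neighbour the dopaminergic neurons in the substantia nigra, stood higher in experiment. Of 5 expressed markers, 3 were called higher, Gad1, Gata3 and Pvalb, and 0 lower, against 1.79% of all genes called higher, and the list median was a log2 ratio of 1.94. Gad1, the main GABA-synthesizing enzyme (chromosome 2, 70553072 to 70602014, plus strand), ranged from 0 to 691 CPM with a median of 149 CPM in experiment and from 0 to 376 CPM with a median of 5.19 CPM in control. The ranges overlapped, and 17 of 22 experiment libraries lay above the control median. Its ratio was 4.89 (4.66 to 5.14), with 2.69 and 6.85 in the sets. Gata3, a transcription factor of midbrain GABAergic neurons, had a count in 14 experiment and 7 control libraries and a ratio of 9.83 (8.55 to 11.3), which was 23.4 without control 5 and 6.47 without experiment 2. Pvalb, parvalbumin, had medians of 61.8 CPM in experiment and 8.18 CPM in control and a ratio of 3.82, but 2.23 and 3.14 in the sets. Without the glia-rich libraries 1 of the 5 markers was called higher, Gad1 at 4.01, and the list median was 0.86, with Gata3 at 4.76 in 64.9% of pairs and Pvalb at 1.34 in 58.6% of pairs.

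Gad1 and Th ran in opposite directions among the experiment libraries. Spearman's rho of Th with Gad1 was -0.63 over the 22 experiment libraries and -0.20 over the 41 control libraries. The summed level of the GABAergic list ranged from 0 to 1823 CPM with a median of 433 CPM in experiment and from 0 to 1173 CPM with a median of 53.9 CPM in control. Slc32a1, the vesicular GABA transporter and a defining marker, had 7.16 CPM in experiment and 2.37 CPM in control, below the limit for an expressed gene, and was chosen for mention after its value was seen. Without the 16 libraries highest in this sum, 10 of experiment and 6 of control, the ratio of Gad1 was 5.57, Gata3 1.74, Th 0.533, Slc6a3 0.971 and Slc18a2 1.25. The dopamine list then had a median of -0.04 with 0 called higher and 3 lower, and the serine list had 14 higher and 1 lower. The part of RNA from neighbouring neurons in the results was not tested beyond these values. In the Aldh1a1-high libraries the GABAergic list had a median of -0.40, with 37.5 CPM of Gad1 in experiment and 49.6 CPM in control.

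Neurofilament genes, which encode intermediate filaments of large axons, were called higher in part. Of 35 expressed genes of the neuronal cytoskeleton, 3 were called higher, Nefl, Nefm and Map1a, and 1 lower, the intermediate filament Prph. Of all genes 1.79% were called higher and 5.15% lower, and the list median was -0.01. Without the glia-rich libraries none of the 35 was called. Prph had a ratio of 0.144, or 0.0391 without experiment 13. Nefl ranged from 8.48 to 1335 CPM with a median of 250 CPM in experiment and from 0 to 1674 CPM with a median of 129 CPM in control, a ratio of 2.36. Its ratio within the sets was 1.65 and 1.68. Nefm had a ratio of 2.74, but 1.88 and 1.99 in the sets, at 75% and 54.6% of pairs. Its ratio was 0.891 once the libraries richest in GABAergic markers were left out, where Nefl was at 1.84. In the Aldh1a1-high libraries the ratios were 0.521 for Nefl and 0.447 for Nefm.

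Immediate early genes, which neurons switch on within minutes of strong activity or injury, were higher in part. Of 28 expressed, 4 were called higher, Fos, Junb, Egr1 and Nr4a1, and 0 lower, against 1.79% of all genes called higher, with a list median of 0.66. Within sets 1 and 2 that median was 0.40 and 0.35. Fos ranged from 0 to 10251 CPM with a median of 1126 CPM in experiment and from 73.9 to 1814 CPM with a median of 575 CPM in control. The upper end of experiment lay far above control, and the lower ends overlapped. Its ratio was 2.55, with 1.89 and 3.02 in the sets, 1.20 in the Aldh1a1-high libraries and 1.52 once the glia-rich libraries were left out. Egr1 had a ratio of 2.03 (1.43 and 2.17 in the sets), Nr4a1 2.32 (1.20 and 3.60) and Junb 1.71 (1.76 and 1.07). Without experiment 27 Fos was at 2.16, Egr1 at 1.65, Nr4a1 at 2.28 and Junb at 1.59. Egr1 and Junb then stood at 63.5% and 63.6% of pairs, under the limit for a call. Without the libraries richest in GABAergic markers Egr1 was at 1.09, Nr4a1 at 4.03 and Junb at 1.08. Without the glia-rich libraries 2 of the 28 were called higher and 1 lower, against 3.93% and 7.20% of all genes, and the list median was -0.14. Egr1 was then at 1.41, Nr4a1 at 3.26 and Junb at 0.875. Without experiment 27 alone, 2 were called higher and 1 lower and the median was 0.44.

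Markers of astrocytes had the highest list median, 2.97 over 18 expressed genes, yet 1 of them was called higher, S100b, and 0 lower. Of all genes 1.79% were called higher and 5.15% lower. The summed astrocyte list had a median of 1716 CPM in experiment and 1400 CPM in control, with the highest library at 16624 CPM in experiment and 3447 CPM in control. Single libraries held 59.1% of the experiment counts of Agt and 56.1% of those of Gja1, which are defining markers named after their values were seen. Their medians were 0 in both groups. Without experiment 27 none of the 18 was called, and the median was 2.18. Of 11 expressed microglial genes and 9 of oligodendrocytes, 0 were called in either direction, with medians of 0.37 and 1.57. Within set 2, 7 of the 18 astrocyte genes were called higher, and within set 1 none was, against 7.04% and 3.88% of all genes. The summed level of the 3 glial lists had medians of 4380 CPM in experiment and 2619 CPM in control. The part of glial RNA in the other results was not tested beyond the values given without these libraries.

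**Figure D3:**
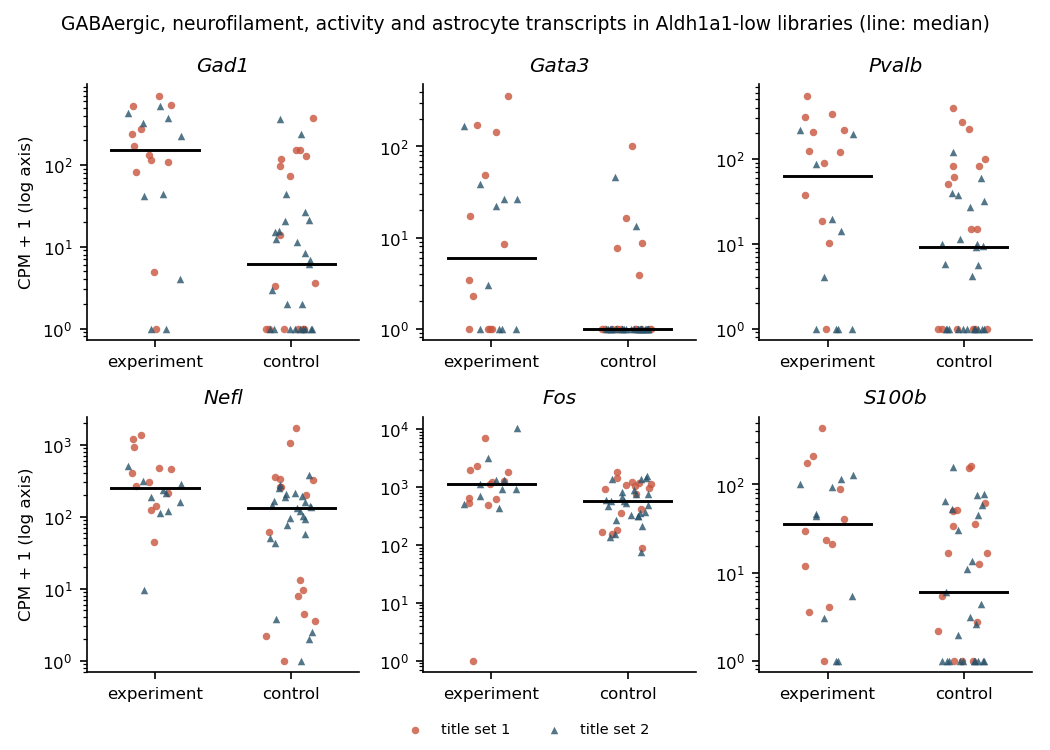
Levels of the GABAergic markers Gad1, Gata3 and Pvalb, the neurofilament Nefl, the immediate early gene Fos and the astrocyte marker S100b in each Aldh1a1-low library, as CPM plus 1 on a log axis, with experiment left of control and the line at the group median. Medians of Gad1 are 149 CPM in experiment and 5.19 CPM in control, and both groups hold libraries at 0. Circles and triangles are title sets 1 and 2.

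Cholesterol is made within neurons and taken up from glia, and part of its genes were called lower in experiment. Of 29 expressed genes of synthesis and uptake, 0 were called higher and 8 lower, against 5.15% of all genes called lower, and the list median was a log2 ratio of -0.45. Among them were Hmgcs1, an early enzyme, Mvd, Fdft1 and Msmo1 of the later steps, Scap, which escorts the sterol-sensing transcription factor, and the lipoprotein receptor Lrp1. Mvd had a ratio of 0.657, or 0.244 without experiment 2. Hmgcs1 ranged from 0 to 776 CPM with a median of 230 CPM in experiment and from 60.97 to 1309 CPM with a median of 406 CPM in control, a ratio of 0.637. Msmo1 had medians of 178 CPM in experiment and 335 CPM in control and a ratio of 0.583. In set 1 these 2 ratios were 1.08 and 0.996, and in set 2 they were 0.474 and 0.455. The list median was -0.07 in set 1, with 1 called higher and 1 lower, and -0.66 in set 2, with 2 higher and 13 lower. Of all genes 3.88% were called higher and 9.43% lower in set 1, and 7.04% higher and 10.6% lower in set 2. In the Aldh1a1-high libraries Hmgcs1 was at 0.437. Without experiment 27 the count of genes called lower was 5, and so it was without experiment 48 or control 40.

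Vesicle and lysosome genes gave few calls, beside 5.15% of all genes called lower. Of 16 expressed genes of granins and neuropeptide processing, 0 were called higher and 2 lower, Scg5 and Pam. Scg5, the chaperone of a prohormone convertase, ranged from 7.01 to 528 CPM with a median of 213 CPM in experiment and from 72.2 to 1196 CPM with a median of 425 CPM in control. Its ratio was 0.634, 0.623 and 0.607 in the sets and 0.714 in the Aldh1a1-high libraries. Of 46 expressed synaptic vesicle genes 1 was called lower, Stx1a, and 0 higher. Of 54 expressed genes of lysosome and autophagy, 0 were called higher and 3 lower, Atp13a2, Atp6v0a1 and Atg9a, whose ratio of 0.566 was 0.356 without experiment 46. With single libraries left out, 3 to 6 of the 54 were called lower. Atp6v0a1, a subunit of the proton pump, had medians of 291 CPM in experiment and 586 CPM in control and a ratio of 0.522, with 0.706 and 0.538 in the sets. Sqstm1, an autophagy receptor, had a ratio of 1.33 at 68.5% of pairs and stayed under the fold limit. Of 26 expressed genes linked to Parkinson disease, 0 were called higher and 3 lower, Park2, Atp13a2 and Gch1, and Atp13a2 was at 1.00 in set 1 and 0.586 in set 2.

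Energy, protein quality and iron genes gave few calls, beside 1.79% of all genes called higher and 5.15% lower. Of 78 expressed nuclear-encoded respiratory genes, 1 was called higher, Ndufb9, a subunit of complex I (ratio 1.53), and 0 lower, with a median of 0.22. That median was 0.02 without the glia-rich libraries and -0.03 without those richest in GABAergic markers. None of 9 mitochondrial-encoded genes was called, with a median of 0.33, though 3 were called higher without the glia-rich libraries, against 3.93% of all genes. Within sets 1 and 2 the median of these genes was 0.76 and 0.58. None of 75 ribosomal protein genes was called, with a median of 0.45, and 73 had a ratio above 1. Within set 2, 8 of the 75 were called higher, against 7.04% of all genes there. Without libraries numbered 1 to 10, 20 were, against 4.82%, with a median of 0.69. The ribosomal median was 0.09 without the glia-rich libraries and 0.14 without those richest in GABAergic markers. Of 40 expressed proteasome genes 0 were called higher and 1 lower, and of 36 cytosolic chaperones 0 and 2, Hspa4l and Chordc1. Fth1, the heavy chain of ferritin, had medians of 1395 CPM in experiment and 941 CPM in control and a ratio of 2.18, but 1.23 without the glia-rich libraries. Of 30 expressed antioxidant genes 0 were called higher and 2 lower, Gclc, which limits glutathione synthesis, and Gpx1, a glutathione peroxidase. None of 18 glycolytic and none of 18 p53 and apoptosis genes was called.

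**Figure D4:**
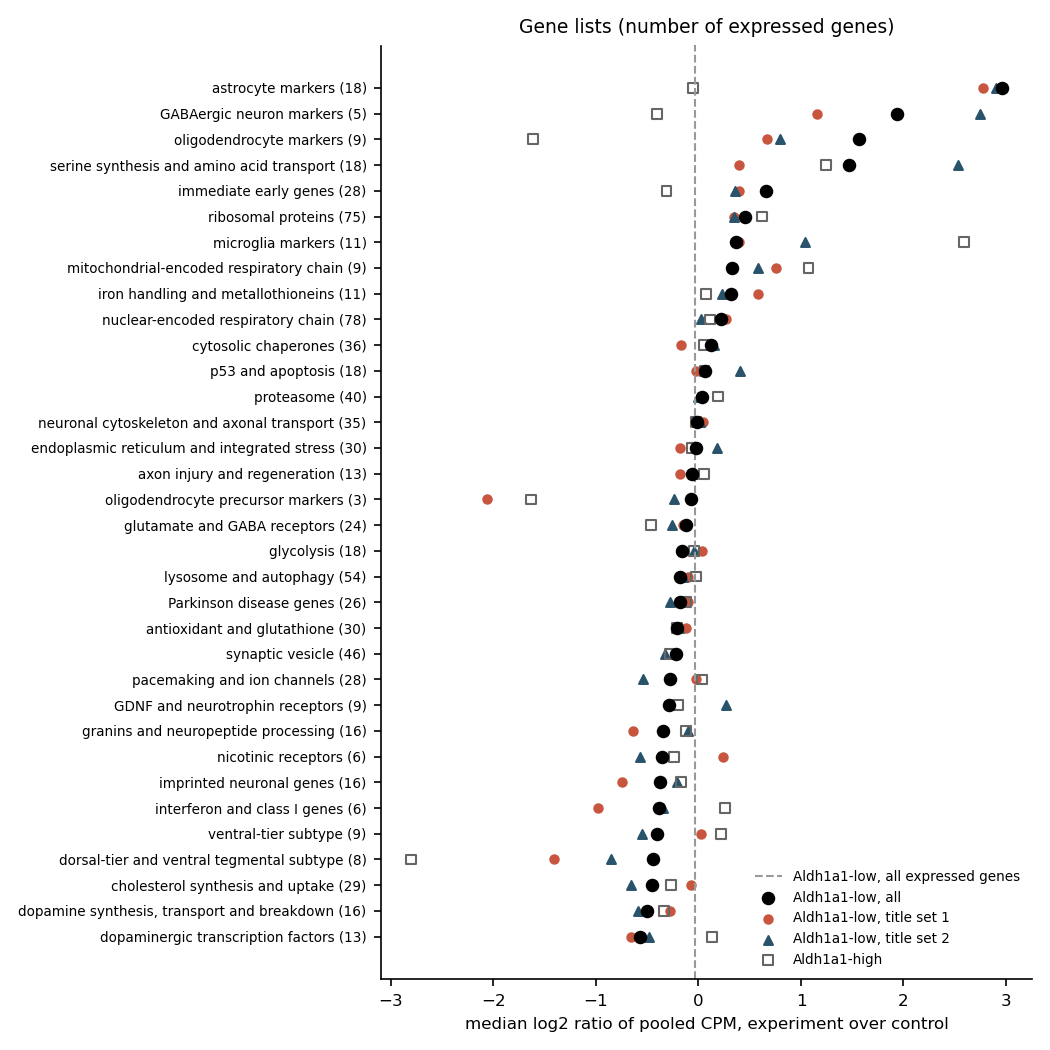
Median log2 ratio of pooled CPM, experiment over control, for each gene list with at least 3 expressed genes, whose number is in brackets. Filled black points are all Aldh1a1-low libraries, circles and triangles their title sets 1 and 2, open squares the Aldh1a1-high libraries, and the dashed line the median of all expressed genes, -0.03. The serine list lies at 1.47 and 1.24 in Aldh1a1-low and Aldh1a1-high libraries, the GABAergic list at 1.94 and -0.40.

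Outside the lists, the genes called with the highest share of pairs were led by Ybx1, an RNA-binding and cold-shock protein. It ranged from 20.4 to 351 CPM with a median of 115 CPM in experiment and from 0 to 216 CPM with a median of 27.4 CPM in control. With 20 of 22 experiment libraries above the control median, its ratio was 2.29 (2.17 to 2.42), 2.59 and 2.72 in the sets and 2.19 in the Aldh1a1-high libraries. H2afz, the histone variant H2A.Z, had medians of 242 CPM in experiment and 137 CPM in control and a ratio of 2.12, and Eif1, which helps the ribosome find the start codon, medians of 811 CPM in experiment and 470 CPM in control and a ratio of 1.53. Ptma and Hmgn2, both chromatin-associated proteins, had ratios of 1.86 and 1.87. Ybx1, H2afz, Eif1, Ptma and Hmgn2 have near-identical processed copies in the mouse genome, and no source used here says how multiply matching reads were counted, which leaves the levels of these 5 genes uncertain. Serbp1, an RNA-binding protein of the ribosome, was at 1.63 here and at 0.687 in the Aldh1a1-high libraries. The other 2 of the 12 furthest genes were Rnf141, a RING finger protein (2.55), and Lsm10, of the histone RNA processing complex (1.84, with 7.81 and 1.04 in the sets, 3.41 without control 42 and 1.49, not called, without experiment 1).

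Beside Th, Scg5, Dlk1 and Cacng5, the 12 genes most often lower held Slc39a4, a zinc importer, with a count in 4 experiment and 30 control libraries and a ratio of 0.149. A single library held 78.6% of its experiment counts, and without it, experiment 2, the ratio was 0.0361. Chl1, a cell adhesion molecule, had medians of 33.5 CPM in experiment and 131 CPM in control, a ratio of 0.351, and 0.954 in the Aldh1a1-high libraries. Cyb561, an electron carrier of secretory vesicle membranes, had medians of 56.6 CPM in experiment and 281 CPM in control, a ratio of 0.346, and 0.991 in the Aldh1a1-high libraries. Rxrb, a partner of retinoic acid receptors, had a count in 8 experiment and 35 control libraries and a ratio of 0.117, with 0.0634 and 0.204 in the sets and 3.95 in the Aldh1a1-high libraries. Tecr, an enzyme of fatty acid elongation, had a ratio of 0.654, and 0.669 in the Aldh1a1-high libraries. The remaining 3 were Itm2c, a transmembrane protein (0.610), Ppp2r1a, the scaffold of protein phosphatase 2A (0.639), and Arfgap2, of Golgi transport (0.335).

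Of the 163 genes called higher, 96 had a ratio above 1 in the Aldh1a1-high libraries and 42 were at least 1.5-fold higher there by pooled CPM, against 15.3% of all expressed genes, with a median log2 ratio of 0.16. Of the 468 called lower, 333 had a ratio below 1 and 185 were at least 1.5-fold lower there, against 26.2% of all, with a median of -0.39. All expressed genes had a median of -0.11 in those libraries, so most of them also had a ratio below 1 there. The shares of all genes given here belong to the 1.5-fold counts only. The called genes were selected on the Aldh1a1-low libraries, so their values there are a description, and no difference between the 2 kinds of library is read from them.

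**Figure D5:**
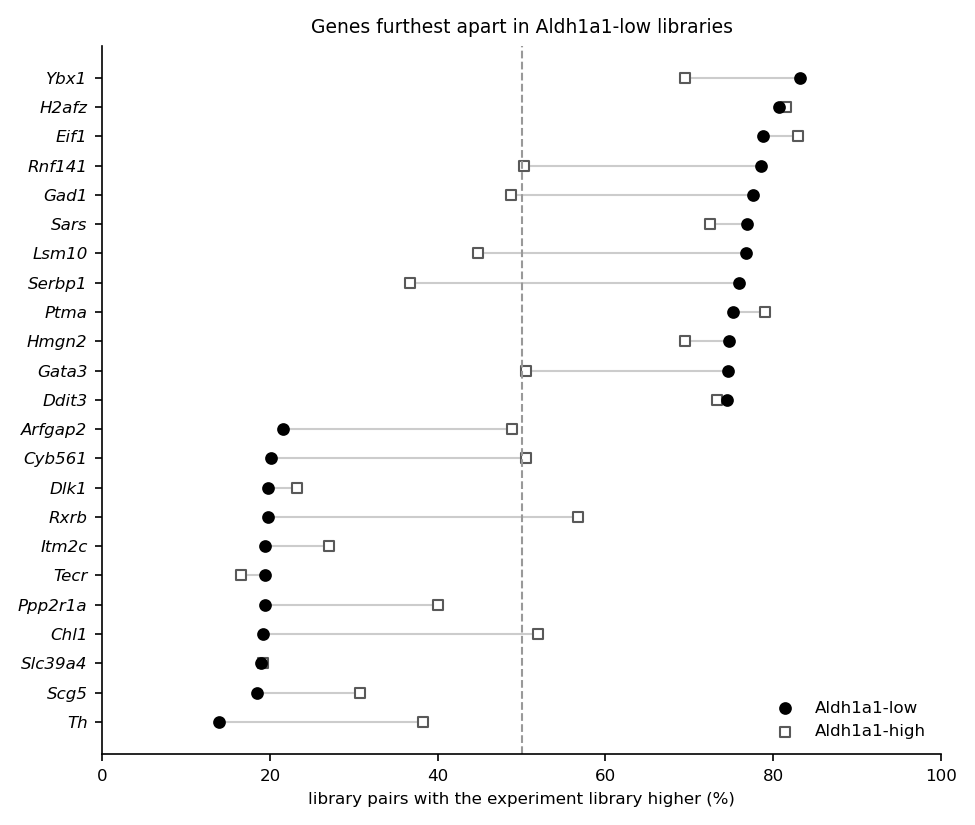
Share of experiment-control library pairs in which the experiment library was higher, for the 12 genes called higher with the highest shares and 11 of the 12 called lower with the lowest (Cacng5, without counts in experiment, is left out). Filled points are Aldh1a1-low libraries, open squares Aldh1a1-high libraries, and the dashed line marks 50%. Th lies at 14.0% and 38.2%, Ybx1 at 83.1% and 69.5%.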

How the data were processed

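RNA drawn into patch pipettes was amplified by Smart-seq2 and sequenced from HyperPlus libraries, per the labels' protocols. The authors deposited 1 table of whole read counts by gene symbol that covers all 104 libraries, with no column left unmatched to a sample. The submitters' processing notes list STAR 2.5.3a, featureCounts 1.5.3 and the build mm10 without role or order. The reporter was not analysed here. Annotation, strand setting and the handling of multiply matching reads were not given in the sources used here.

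Groups came from sample titles and title sets from the letter case of control titles and the order of the records. Counts of 45808 gene rows were scaled to CPM without the 92 ERCC rows. Levels were pooled over the libraries of a group with exact Poisson 95% intervals, and the interval of a ratio treats the group's share of the summed counts as binomial (exact). For ratios a group sum under 3 counts was raised to 3. Tied library pairs counted equally in both directions. The table held whole counts, but no count model was run, because the labels name no animal. Scale factors from edgeR 4.0.16 (TMM) and DESeq2 1.42.0 were tried as alternatives. Python 3.11.15, numpy 2.4.6, pandas 2.3.3, scipy 1.17.1 and R 4.3.3 were used.

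Named genes are the 12 called genes with the highest and the 12 with the lowest share of library pairs, leaving out unnamed models, pseudogenes, ribosomal, mitochondrial, haemoglobin and sex-linked genes, then Th, Slc6a3, Slc18a2, Ddc, Calb1, Sox6, Nr4a2, Pitx3 and Foxa2, and from each list up to 4 expressed genes furthest from 50% of pairs. Called members of a list are named beside these. A few genes that the rule or the lists name are not reported here. The members, the gene lists and the rule were chosen with earlier results of these data known. Names of ribosomal protein genes were matched by a pattern narrowed after the data were seen, to leave out Rps27l. Lists of interferon and class I genes (6 expressed, 0 called higher and 1 lower), glutamate and GABA receptors (24, 0 and 1), axon injury (13, 1 and 0), iron handling (11, 2 and 1), dorsal-tier genes (8, 0 and 1), oligodendrocyte precursors (3, 0 and 1), endothelial and mural cells (1, 0 and 0), other neurons (2, 0 and 0) and blood cells (0 expressed) were also described. For all genes the shares called were 1.79% higher and 5.15% lower. Gene positions come from GENCODE vM21 (GRCm38) and promoter sequences from RefSeq (GRCm38.p6).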

Additional observations from a re-analysis of the deposited data

How the results depend on the processing

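No paired analysis was possible because no test was made: the labels name no animal and the title numbers shared by experiment and control are names only. The alternatives were equal weights, the difference of mean log2(CPM + 1), TMM and DESeq2 scale factors, thinning to 400000 counts, each title set alone, Aldh1a1 below 250 or 1000 CPM, leaving out the 16 libraries highest in glial markers, libraries under 1000 CPM of Th (experiment 27), or the highest library per gene and group. Chosen after seeing the data were leaving out the 16 highest in GABAergic markers, leaving out libraries numbered 1 to 10, no Aldh1a1 threshold, and leaving out each library in turn. The mean log2 scale moved the median of all expressed genes to -0.22.

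With expressed genes chosen anew under each setting, the count of genes called lower, 468, was 300 with DESeq2 factors, 822 and 979 in sets 1 and 2 alone and 865 without the GABA-rich libraries. The count called higher, 163, was 366 and 628 in the sets, 354 without the glia-rich libraries, 342 without the GABA-rich libraries, 427 without libraries 1 to 10 and 55 without a threshold. The median of the astrocyte list, 2.97, was 1.24 on the mean log2 scale, 1.15 below 250 CPM, 1.11 without the glia-rich libraries, 0.23 without the GABA-rich libraries, 3.89 without libraries 1 to 10 and 1.97 without a threshold. The serine list, 1.47, was at 0.40 and 2.53 in sets 1 and 2, and immediate early genes, 0.66, at -0.14 without the glia-rich libraries. A value counted as moved when it shifted by at least the standard deviation of log2(CPM + 1) between control libraries. It counted as reversed on a change of sign, for called genes and for lists with a median of at least 1.5-fold. These limits are wide. The dopamine list, -0.50, was at -0.04 without the GABA-rich libraries and at -0.72 without libraries 1 to 10, and did not count as moved. Nor did the cholesterol list, -0.45, at -0.07 in set 1. Of 544 values of 34 list medians 9 moved, the 8 above and that of oligodendrocyte precursors at -2.52 without the GABA-rich libraries, and 1 reversed.

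Of 2850 values of 190 named genes, 52 moved and 9 reversed. As log2 ratios, the 9 were Foxa2 at 1.00, Lmo3 at -0.021, Atp13a2 at 0.0039, Hmgcs1 at 0.11, Phgdh at -0.38 and Ppp1r15a at -0.44 in set 1, Ntrk3 at 0.27 in set 2, Junb at -0.19 without the glia-rich libraries and Nefm at -0.17 without the GABA-rich libraries. The cause was not tested. Subsets hold fewer libraries, and their counts are not read as larger effects. Genes with counts in few libraries are limited by depth and by the number of neurons.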
